A study of Homo sapiens with 10 samples.

Results

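The mucins and goblet secretory genes MUC1, MUC2, MUC5AC, MUC5B, MUC13, TFF1, TFF2, TFF3, REG4 and AGR2 were taken from a gene count table by their symbols, giving 10 of its 60651 genes. They were measured by RNA sequencing in 10 libraries, 2 in each of 5 groups. The groups were HT29 with 10 µM VXN, HT29 with DMSO, t-hESC with 10 µM VXN, t-hESC with 1 µM BIX, and t-hESC with DMSO. HT29 is an established line from a human colorectal cancer, and t-hESC is labelled as pluripotent stem cells that are transformed. DMSO is the solvent. The labels leave the code name VXN unexplained, and BIX commonly stands for an inhibitor of the methyltransferases G9a and GLP. The series title places the work under drugs that change dimethylation of histone H3 at lysine 9. No label gives an engineered allele for either line. The treatment field gives 48 hours and DMSO for all samples alike, and the compounds were therefore read from the titles.

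Goblet cells of the intestine make and secrete mucus. Its scaffold is formed by gel-forming mucins, very large proteins that carry dense O-linked sugars and join end to end through disulfide bonds, while membrane mucins stay anchored at the cell surface. Trefoil factors are small secreted peptides that accompany mucins, REG4 is a secreted C-type lectin, and AGR2 is a protein disulfide isomerase of the endoplasmic reticulum that takes part in mucin folding. MUC2 is the main gel-forming mucin of normal colon, whereas MUC5AC is best known from stomach and airway surface epithelium and is also made by some colorectal cancers.

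Gene counts per library ran from 13137026 to 24492838. Levels are given as CPM, counts scaled to the size of each library, and a count of 0 allows up to 0.123 to 0.22 CPM in a library, for counting error only. CPM does not correct for transcript length, so it is compared here between libraries and not between genes. The series calls the 2 libraries of a group biological replicates. The spread that the p-values measure is the one between these libraries, and it was small (a common biological coefficient of variation of 0.021). A gene was called at an adjusted p under 0.05 in edgeR's quasi-likelihood test with Benjamini-Hochberg adjustment over the 22495 genes tested. An SE printed with a log2 fold change was worked out from that change and its test statistic. At low counts such an SE can be smaller than the counting error. In these bulk libraries fewer cells that express a gene and less RNA per cell cannot be told apart.

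Of the 10 genes, 9 passed the filter on low counts and TFF2 did not. MUC1 passed it in every group. MUC2, MUC5AC, MUC13, TFF1, REG4 and AGR2 passed only through their HT29 libraries, and MUC5B only through HT29 with VXN. TFF3 reached the level of the filter in HT29 with DMSO and in t-hESC with VXN and with DMSO. Counts of called genes below are therefore counts among 9 genes, most of which had to be higher in HT29 than in t-hESC to be tested at all.

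**Figure D1:**
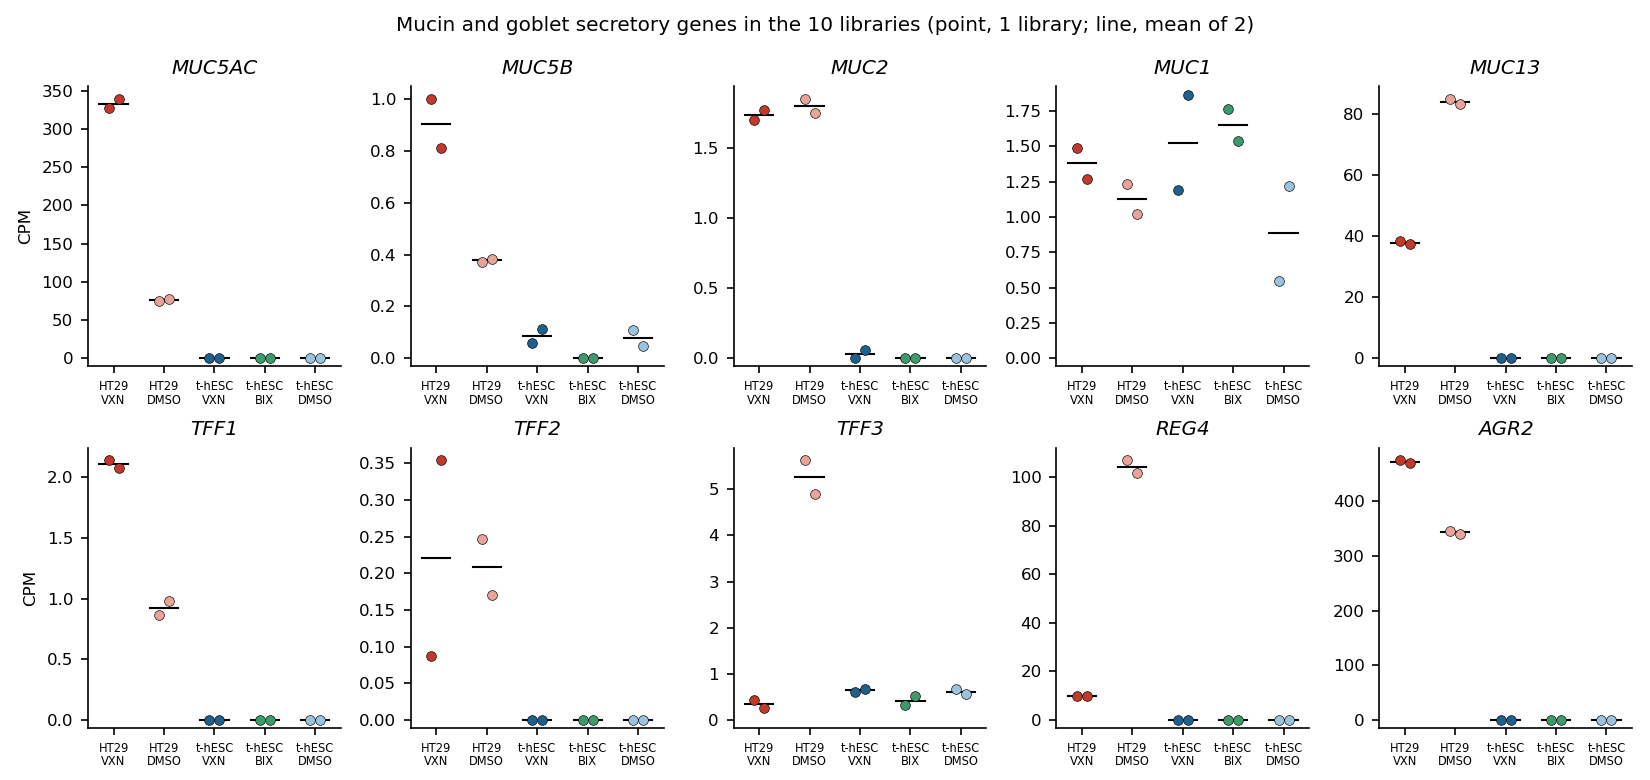
Levels of the 10 genes in CPM (vertical axes, each from 0 on its own linear scale) in the 5 groups (horizontal axes). Each point is 1 library and each line the mean of 2. MUC5AC, TFF1 and AGR2 were higher and MUC13, TFF3 and REG4 lower in HT29 with VXN, and in t-hESC only MUC1 and TFF3 stood above a few counts per library.

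The first comparison asked what VXN changed in HT29. Under VXN the gel-forming mucin MUC5AC was 4.37-fold as abundant as under DMSO, and the isomerase AGR2 1.38-fold. The lectin REG4, the trefoil peptide TFF3 and the membrane mucin MUC13 were lower, at 0.093, 0.0666 and 0.451 of their DMSO levels. MUC5B and TFF1, both low, were higher, and neither MUC1 nor MUC2 was called. So 4 of the 9 genes tested rose and 3 fell. MUC5B passed the count filter only through the VXN libraries, so it could hardly have been counted as a fall. Over all genes tested 60% were called in this comparison, 33% higher and 26.9% lower, so 7 called of 9 is close to the share of all genes. At a change of at least 2-fold 6 of the 9 were called, beside 19.6% of all genes tested. The median log2 fold change was 0.29 over the 9 genes and 0.05 over all genes.

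**Figure D2:**
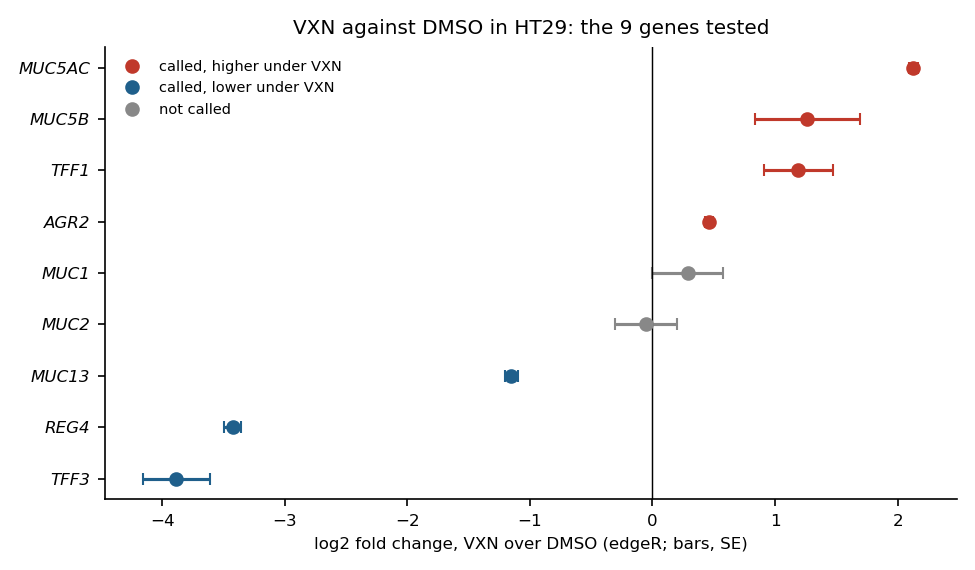
Log2 fold changes of the 9 genes tested, VXN over DMSO in HT29 (horizontal axis), with 1 gene a row. Points are edgeR estimates and bars their SE, worked out from the test statistic. The values run from -3.88 for TFF3 to 2.13 for MUC5AC, with MUC1 and MUC2 not called.

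Among the gel-forming mucins, MUC5AC (ENSG00000215182, chromosome 11, 1157953 to 1201138, GRCh38.p14) had 327 and 339 CPM in the VXN libraries, against 75.4 and 77 CPM in the DMSO libraries. Both VXN libraries were far above both DMSO libraries, and those of a group lay within a few percent of each other. Its log2 fold change was 2.13 ± 0.039 (SE; edgeR adjusted p = 1.62e-51). Among the 12933 genes whose mean in HT29 reached 4 CPM, 232 had a higher log2 fold change. Mucin genes have long coding repeats and close relatives, and how reads that match several of them were counted is not known.

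MUC5B (chromosome 11, 1223066 to 1262172), the next gene along that cluster and the main gel-forming mucin of airway glands, was near the lower limit of what was tested. It had 23 and 16 counts (1 and 0.81 CPM) in the VXN libraries, against 9 and 9 counts (0.37 and 0.384 CPM) in the DMSO libraries. The groups did not overlap, but the log2 fold change of 1.26 ± 0.43 (SE; edgeR adjusted p = 0.00927) did not hold throughout. The adjusted p was 0.125 without VXN replicate 1, 0.0645 without DMSO replicate 1, 0.0522 without DMSO replicate 2 and 0.242 with DESeq2. A strand-blind library cannot separate MUC5B from MUC5B-AS1, a long noncoding RNA inside it, whose own row held 3 counts over the 4 HT29 libraries.

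MUC2 (chromosome 11, 1074874 to 1110508), on the other side of MUC5AC, had 1.7 and 1.77 CPM in the VXN libraries, against 1.85 and 1.75 CPM in the DMSO libraries. The groups overlapped, and the log2 fold change was -0.05 ± 0.25 (SE; edgeR adjusted p = 0.91) with a 95% interval of -0.55 to 0.45. These 3 neighbouring genes thus had 3 different outcomes in HT29: MUC5AC rose several-fold, MUC5B rose from a level of a few counts in some fits only, and MUC2 was not called.

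Of the membrane mucins, MUC13 (chromosome 3, 124905442 to 124934751), a mucin of the intestinal epithelial surface, had 38.4 and 37.3 CPM in the VXN libraries, against 84.8 and 83.1 CPM in the DMSO libraries. Every VXN library was under every DMSO library, with a log2 fold change of -1.15 ± 0.054 (SE; edgeR adjusted p = 1.12e-28). MUC1 (chromosome 1, 155185824 to 155192915), a mucin found on most glandular epithelia, had 1.49 and 1.27 CPM in the VXN libraries, against 1.23 and 1.02 CPM in the DMSO libraries. The VXN values lay just above the DMSO values, yet the log2 fold change of 0.29 ± 0.29 (SE) was not called (edgeR adjusted p = 0.409), and its 95% interval ran from -0.29 to 0.87.

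The 3 trefoil genes lie side by side on chromosome 21 and also went separate ways. TFF3 (42311667 to 42315409), the trefoil peptide of intestinal goblet cells, had 10 and 5 counts (0.437 and 0.253 CPM) in the VXN libraries, against 137 and 115 counts (5.64 and 4.91 CPM) in the DMSO libraries. The drop left TFF3 close to the floor of the libraries. Its log2 fold change of -3.88 ± 0.27 (SE; edgeR adjusted p = 2.77e-20) was the lowest of the 9 genes. The exact 95% interval of the TFF3 count ratio, for counting error only, was 0.0367 to 0.112. That is wider than this SE implies, so the SE understates the uncertainty.

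TFF1 (42362282 to 42366535), which is best known from the stomach surface, moved the other way, with 2.14 and 2.08 CPM in the VXN libraries, against 0.864 and 0.981 CPM in the DMSO libraries. The log2 fold change was 1.19 ± 0.28 (SE; edgeR adjusted p = 0.00019), and with DESeq2 it was 1.16 and not called (adjusted p = 0.102). The annotated long noncoding RNA LOC105372815 overlaps TFF1, and without strand their reads cannot be told apart. TFF2 (42346357 to 42350994), of gastric glands, held 2 and 7 counts in the VXN libraries, against 6 and 4 counts in the DMSO libraries. These overlap, and TFF2 was left untested by the count filter.

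REG4 (chromosome 1, 119794017 to 119811460) had 9.74 and 9.67 CPM in the VXN libraries, against 107 and 102 CPM in the DMSO libraries. The libraries of each group nearly coincided, and the log2 fold change was -3.43 ± 0.067 (SE; edgeR adjusted p = 1.11e-48). Of the same 12933 genes, only 17 had a lower log2 fold change than REG4 and 746 a lower one than MUC13. AGR2 (chromosome 7, 16791811 to 16804999), which had 475 and 470 CPM in the VXN libraries, against 346 and 341 CPM in the DMSO libraries, changed by the smallest amount of the called genes. Its log2 fold change was 0.46 ± 0.031 (SE; edgeR adjusted p = 2.76e-21), and 2933 of those 12933 genes had a higher one.

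**Figure D3:**
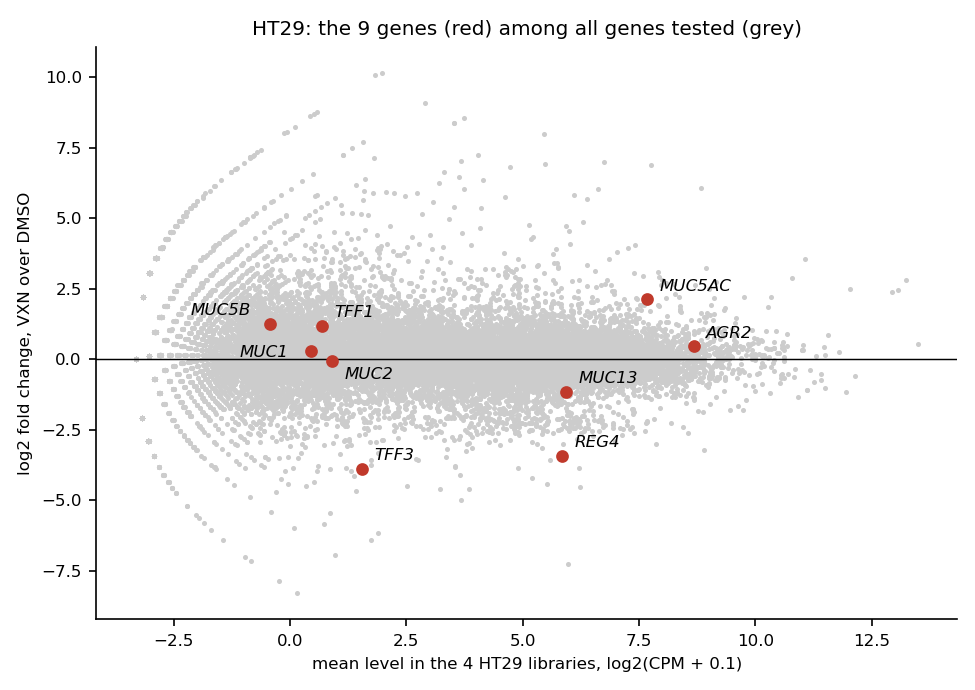
Log2 fold change, VXN over DMSO (vertical axis), against the mean level in the 4 HT29 libraries as log2(CPM + 0.1) (horizontal axis), with each of the 22495 genes tested as a grey point and the 9 genes in red. REG4, TFF3 and MUC13 lie under most genes of their level and MUC5AC above most, while the other genes lie within the bulk of genes of their level.

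The authors' deposited table for this comparison gave the same direction for each of the 7 called genes. In the authors' deposited table MUC5AC stood at a log2 fold change of 2.05, AGR2 at 0.38, MUC13 at -1.19, REG4 at -3.48 and TFF3 at -3.81, all with an adjusted p under 0.05. For the low genes MUC5B and TFF1 the authors' deposited table gave 0.29 and 0.24, with adjusted p of 0.449 and 0.544. The edgeR values were 1.26 and 1.19. For MUC1 under VXN in t-hESC the authors' deposited value was likewise 0.08, where edgeR gave 0.75. Deposited values of these low genes thus lie nearer 0 than the edgeR values, and their sizes cannot be compared directly.

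Promoter sequence is shown for the 3 called genes that have an entry in the RefSeq promoter table, as context for genes that fell (MUC13 and REG4) or rose (AGR2). The table, of build GRCh38.p14, held 5 of the 10 genes, the others being MUC1 and MUC2. Each sequence is the 250 bases before the annotated start, 5′ to 3′ on the strand of the gene, and capitals mark matches to searched motifs. MUC13 is from chr3:124934752-124935001, REG4 from chr1:119811461-119811710 and AGR2 from chr7:16805000-16805249, all on the minus strand.
MUC13: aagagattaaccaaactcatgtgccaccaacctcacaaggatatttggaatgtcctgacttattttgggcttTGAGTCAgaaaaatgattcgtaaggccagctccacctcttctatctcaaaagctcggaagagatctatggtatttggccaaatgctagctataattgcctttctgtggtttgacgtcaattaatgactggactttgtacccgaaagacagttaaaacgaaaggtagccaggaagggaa
REG4: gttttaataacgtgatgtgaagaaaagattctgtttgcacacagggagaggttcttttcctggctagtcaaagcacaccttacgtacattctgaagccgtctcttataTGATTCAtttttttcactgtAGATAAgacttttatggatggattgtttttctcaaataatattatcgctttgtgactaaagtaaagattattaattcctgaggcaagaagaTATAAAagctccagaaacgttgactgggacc
AGR2: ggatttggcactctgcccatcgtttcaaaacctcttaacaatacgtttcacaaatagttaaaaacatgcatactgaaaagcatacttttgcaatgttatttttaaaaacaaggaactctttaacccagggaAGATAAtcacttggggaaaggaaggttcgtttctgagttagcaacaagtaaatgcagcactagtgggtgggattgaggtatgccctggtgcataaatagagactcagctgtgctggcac
The motifs, searched on both strands, were the TATA box TATAAA, the forkhead core TGTTTAC, the GATA core AGATAA, the GC box GGGCGG and TGANTCA. The last is a loose form of the AP-1 core that allows any middle base, where the usual core has C or G. It reads the same on both strands but for that base. In REG4 a TATA box lay 31 to 26 bases before the start, a GATA core 122 to 117 bases and a TGANTCA match 142 to 136 bases before it. That match has T in the middle and is not the usual AP-1 core. MUC13 held 1 AP-1 core, 178 to 172 bases before the start, and AGR2 held 1 GATA core, 119 to 114 bases before it. Among 35116 RefSeq promoters of this length 10.7% held the TATA box, 2.98% the forkhead core, 9.17% the GATA core, 42.6% the GC box and 6.57% the loose form TGANTCA. A match describes these letters only, and binding was not measured.

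In t-hESC the same genes were close to absent, and none of the 9 genes tested was called under VXN or under BIX. TFF1 and TFF2 had 0 counts in all 6 libraries. MUC2, MUC5AC, MUC5B, MUC13 and REG4 each had between 0 and 3 counts a library. AGR2 had 0 and 2 counts with VXN, 3 and 3 with BIX, and 3 and 5 with DMSO, all near the floor of 3 counts. Over all genes tested 29% were called under VXN and 23.1% under BIX. At an unadjusted p under 0.05 there was 1 gene, MUC1, in each comparison, and DESeq2 called 0, with 5 of the 9 left without an adjusted p.

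MUC1 had 1.19 and 1.86 CPM with VXN, 1.76 and 1.54 CPM with BIX, and 0.549 and 1.22 CPM with DMSO in t-hESC. The BIX libraries stood above both DMSO libraries, while the VXN libraries overlapped them. Log2 fold changes were 0.75 ± 0.33 for VXN (SE; edgeR adjusted p = 0.0771) and 0.86 ± 0.33 for BIX (SE; edgeR adjusted p = 0.051). Both rest on the DMSO libraries, which the comparisons share and which differ from each other: without DMSO replicate 2 the log2 fold changes were 1.47 (edgeR adjusted p = 0.0139) and 1.57 (edgeR adjusted p = 0.00995). Without VXN replicate 1 the VXN value was also called, at 1.03 (edgeR adjusted p = 0.0338). Leaving out either VXN library, which alters only the estimate of the spread for BIX, put BIX at adjusted p of 0.0478 and 0.0471.

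TFF3 had 0.597 and 0.677 CPM with VXN, 0.315 and 0.513 CPM with BIX, and 0.659 and 0.565 CPM with DMSO in t-hESC. The VXN and DMSO libraries overlapped, and the BIX libraries lay a few counts under both. With 5 to 12 counts a library, neither log2 fold change was called (0.07 ± 0.42 for VXN and -0.57 ± 0.49 for BIX, SE; edgeR adjusted p = 0.945 and 0.464).

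A test of the difference between the lines in the effect of VXN called 1 of the 9 genes, TFF3, and that one lower, beside 43.2% of all genes tested called and 20.3% called lower. The effect on TFF3 was lower in HT29 than in t-hESC by a log2 difference of -3.95 ± 0.56 (SE; edgeR adjusted p = 1.27e-08). For MUC2, MUC5AC, MUC5B, MUC13, TFF1 and REG4 the t-hESC side rests on at most 4 counts a group, so this test says little about them. AGR2, with 2 counts under VXN and 8 under DMSO in t-hESC, had a difference of 2.16 ± 0.94 (SE; edgeR adjusted p = 0.056). Without t-hESC VXN replicate 2, the library that holds both of these VXN counts, it was 5.49 (edgeR adjusted p = 0.0198), a fitted value against 0 counts that is no bound. MUC1 had a difference of -0.46 ± 0.44 (SE; edgeR adjusted p = 0.434), with a 95% interval of -1.34 to 0.41.

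Set against t-hESC, HT29 held most of the RNA of these genes. Under DMSO the count ratio, scaled for library size, was 1690 for AGR2 (exact 95% interval 859 to 3920, counting error only) and 8.68 for TFF3 (5.7 to 13.8). The genes with 1 to 3 counts in the t-hESC DMSO libraries had ratios of 4120 for REG4 (739 to 163000), 1110 for MUC13 (378 to 5360), 1000 for MUC5AC (343 to 4860) and 4.96 for MUC5B (1.45 to 26.3). Where t-hESC had 0 counts, the level in HT29 was at least 23.7-fold higher for MUC2, 12.1-fold for TFF1 and 2.76-fold for TFF2 against a floor of 3 counts over the group. Exact 95% lower limits of these ratios, which also cover the counting error in HT29, were 18.9, 9.45 and 1.85. MUC1 alone did not differ by call, with 1.23 and 1.02 CPM in HT29 and 0.549 and 1.22 CPM in t-hESC, and a ratio of 1.24 (0.799 to 1.95). Thus 8 of the 9 genes tested were called higher in HT29, where 38.9% of all genes tested were. Of the 8, all but TFF3 passed the count filter only through HT29 libraries. The filter thus largely fixed this count, which cannot be weighed against the share of all genes. Without t-hESC DMSO replicate 2 the set changed, as MUC5B was lost (edgeR adjusted p = 0.105) and MUC1 gained (edgeR adjusted p = 0.0437), and with DESeq2 MUC5B was lost (adjusted p = 0.0628).

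Under VXN 7 of the 9 genes were called higher in HT29, beside 40.9% of all genes tested, and MUC1 and TFF3 were not called. All 7 passed the count filter only through HT29 libraries, so this count too was largely fixed by the filter. TFF3 is the gene whose order turned: it had 0.437 and 0.253 CPM in HT29 with VXN, against 0.597 and 0.677 CPM in t-hESC with VXN. The ratio of 0.551 (exact 95% interval 0.266 to 1.11) was not called (edgeR adjusted p = 0.0828). For AGR2 the ratio under VXN was 8150 (2260 to 67300), on 2 counts in t-hESC. Across the 5 groups TFF3 therefore stood highest in HT29 with DMSO, at 5.27 ± 0.52 CPM (SD, n = 2), and the other groups lay between 0.345 ± 0.13 and 0.637 ± 0.056 CPM (SD, n = 2 each) with neighbours that were not called apart in the comparisons made. MUC1 was highest in t-hESC with BIX, at 1.65 ± 0.16 CPM, and lowest in t-hESC with DMSO, at 0.886 ± 0.48 CPM (SD, n = 2 each), and no comparison called it.

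Other mucins in HT29 were read from a list of 17 further mucin genes, of which 7 were tested, 4 rose, 1 fell and 2 were not called, beside 33% of all genes tested that rose and 26.9% that fell. MUC20, a membrane mucin, had 114 and 117 CPM in the VXN libraries, against 28.9 and 30.1 CPM in the DMSO libraries, with a log2 fold change of 1.97 ± 0.051 (SE; edgeR adjusted p = 5.47e-43). MUC4, another membrane mucin, had 197 and 188 counts in the VXN libraries, against 4 and 3 counts in the DMSO libraries, a ratio of 61.6 (exact 95% interval 29.6 to 154, counting error only). Both DMSO libraries held MUC4 at about the floor of 3 counts. MUC3A, a membrane mucin of the intestinal surface, fell, with 17.3 and 16.6 CPM in the VXN libraries, against 35.4 and 32 CPM in the DMSO libraries. The log2 fold change of MUC3A was -0.99 ± 0.069 (SE; edgeR adjusted p = 2.52e-20). It is nearly identical to MUC3B in parts, and reads could be split between them. The others that rose were OVGP1, at a count ratio of 2.46, and CD164, at 1.19. MUC7, MUC19, MUC22, MUCL1 and EMCN had 0 counts in every HT29 library.

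Of 20 other genes of goblet cell products and secretion, 13 were tested in HT29, 3 rose, 7 fell and 3 were not called, with a median log2 fold change of -0.24. Of all genes tested 33% rose and 26.9% fell. RETNLB and SPINK4 passed the count filter only through HT29 with DMSO, so these 2 could hardly have been counted as rises. BCAS1, which marks goblet cells of the colon, and SYTL2, a synaptotagmin-like protein of vesicle docking, both fell. SYTL2 fell by 1.49 on the log2 scale, and BCAS1 had 40.9 and 41.9 CPM in the VXN libraries, against 104 and 105 CPM in the DMSO libraries. The trypsin inhibitor SPINK1 and the secreted protein WFDC2 rose, by log2 fold changes of 1.08 and 2.10, and so did ZG16B, a lectin-like relative of ZG16 named as the last of the 3 after its values were seen. ZG16B had 6.2 and 5.72 CPM in the VXN libraries, against 4.53 and 3.88 CPM in the DMSO libraries (edgeR adjusted p = 0.0037), and was not called without VXN replicate 1, without DMSO replicate 2 or with DESeq2. CREB3L1, a transcription factor of the secretory pathway, had a log2 fold change of -0.17 ± 0.04 (SE; edgeR adjusted p = 0.000215).

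The goblet cell marker list holds 4 secreted products beyond the 10 genes, of which FCGBP and SPINK4 fell in HT29 and CLCA1 and ZG16 stood at or near 0. FCGBP, which encodes a protein bound to MUC2 in mucus, had 1.7 and 1.82 CPM in the VXN libraries, against 4.49 and 4.69 CPM in the DMSO libraries. SPINK4, a protease inhibitor of goblet granules, had 2 and 0 counts in the VXN libraries, against 30 and 36 counts in the DMSO libraries. RETNLB, a goblet cell resistin-like protein that was chosen for mention after its values were seen, had 0 and 0 counts in the VXN libraries, against 18 and 21 counts in the DMSO libraries, and was thus at least 11.6-fold lower against a floor of 3 counts over the group, while the exact 95% upper limit of the ratio was 0.111. CLCA1, an abundant protease of colonic mucus, had 0 counts in every HT29 library, and ZG16, a mucus lectin, had 1 count in all.

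**Figure D4:**
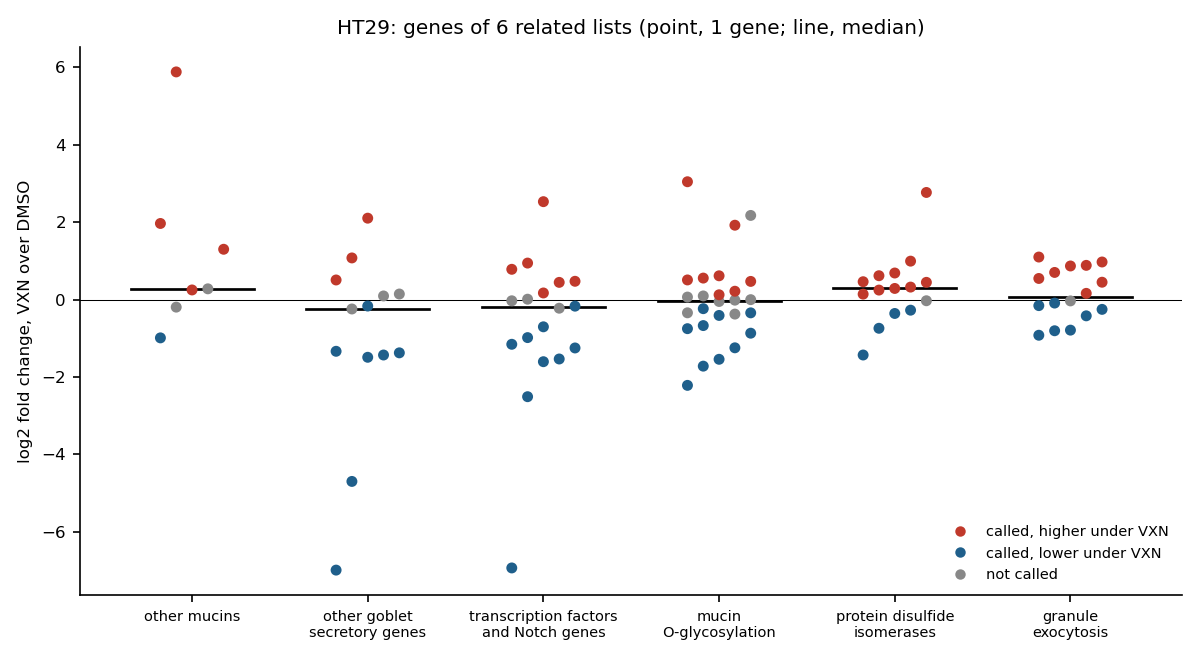
Log2 fold changes, VXN over DMSO in HT29 (vertical axis), of the tested genes of 6 related lists (horizontal axis). Each point is 1 gene, coloured by its call, and each line the median of the list; points of genes with 0 to 2 counts under VXN, such as RETNLB at -7.00, depend on edgeR's prior count. Every list holds genes on both sides of 0, with medians from -0.24 to 0.29.

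Transcription factors and Notch pathway genes of the goblet lineage moved in both directions: of 22 listed, 18 were tested, 6 rose, 9 fell and 3 were not called. The share that rose is that of all genes tested (33%), of which 26.9% fell. ATOH1 passed the count filter only through HT29 with DMSO, so it could hardly have been counted as a rise. ATOH1, the factor that commits intestinal progenitors to secretory fates, had 1 and 0 counts in the VXN libraries, against 88 and 87 counts in the DMSO libraries, a ratio of 0.0064 (exact 95% interval 0.000161 to 0.0361, counting error only). SPDEF, which acts after ATOH1 in goblet cell maturation, rose, with 40.6 and 43.7 CPM in the VXN libraries, against 25.6 and 23.2 CPM in the DMSO libraries. The log2 fold change of SPDEF was 0.78 ± 0.064 (SE; edgeR adjusted p = 2.68e-17). ATOH1 was thus nearly undetected in HT29 with VXN, while SPDEF was above its DMSO level.

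KLF4, a factor of colonic goblet cell differentiation, had 96.3 and 95.7 CPM in the VXN libraries, against 17.2 and 16 CPM in the DMSO libraries, a log2 fold change of 2.53 ± 0.06 (SE; edgeR adjusted p = 2.41e-45). XBP1, the unfolded protein response factor needed by secretory cells, rose by a log2 fold change of 0.94 ± 0.031 (SE; edgeR adjusted p = 3.79e-37), and ELF3 by 0.47. FOXA1 and HNF4A, factors of gut epithelium, fell by 1.16 ± 0.044 and 1.25 ± 0.056 on the log2 scale (SE; edgeR adjusted p = 7.69e-34 and 1.13e-29). FOXA2 rose by a log2 fold change of 0.44. FOXA3 at 0.01 and the intestinal factor CDX2 at -0.23 were not called. The sign of FOXA3 turned under DESeq2-type size factors, with DESeq2 and in several other alternatives, over which its value ran from -0.05 to 0.05.

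**Figure D5:**
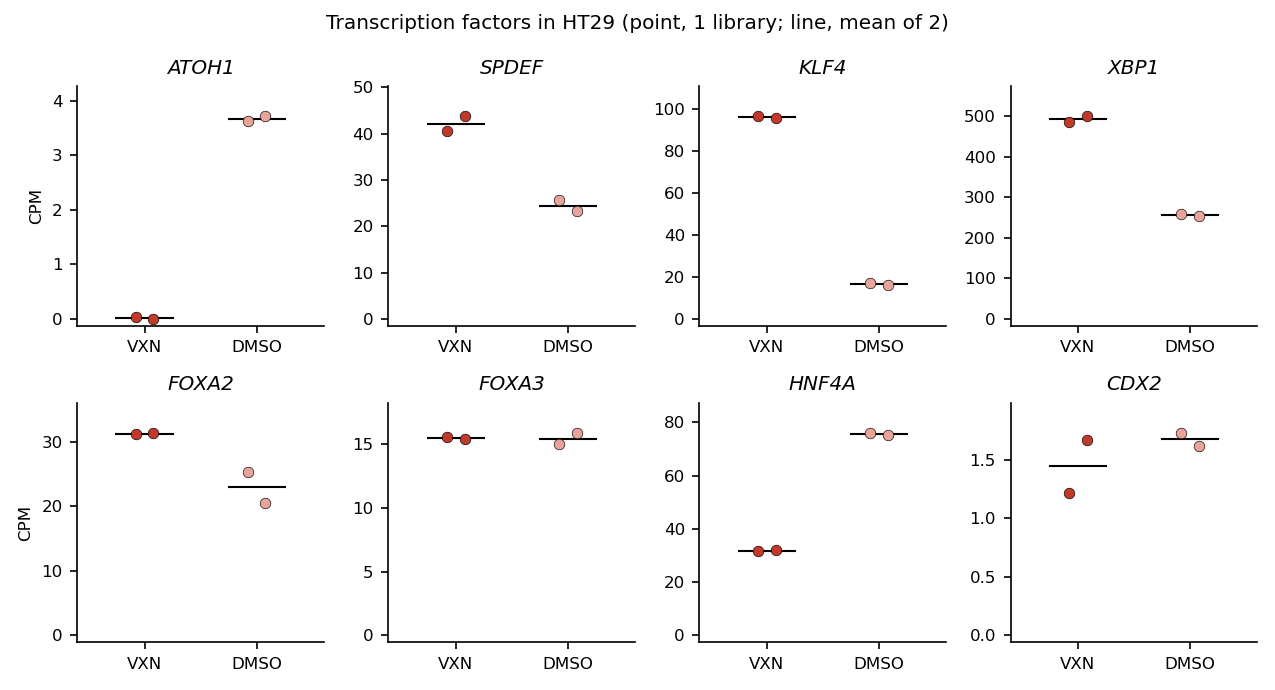
Levels of 8 transcription factor genes in CPM (vertical axes, linear, each on its own scale) in HT29 with VXN and with DMSO. Each point is 1 library and each line the mean of 2. ATOH1 fell to 1 and 0 counts under VXN, HNF4A fell, SPDEF, KLF4, XBP1 and FOXA2 rose, and FOXA3 and CDX2 were not called.

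Of 29 listed genes that serve the building of mucin O-glycans, 26 were tested, 8 rose, 10 fell and 8 were not called, close to the 60% called among all genes tested. Most are enzymes, but C1GALT1C1 is a chaperone, and SLC26A2 and SLC35A1 are transporters. Each of the last-named genes was among those that fell. C1GALT1, which makes the core 1 structure, was counted among those that rose. It was not called under DESeq2-type size factors, with DESeq2, with no count filter or in the fit to just the groups compared. C1GALT1 also lost the call without VXN replicate 1, DMSO replicate 1, DMSO replicate 2 or t-hESC DMSO replicate 1. FUT3, the Lewis fucosyltransferase, had 18.1 and 16.2 CPM in the VXN libraries, against 1.93 and 2.22 CPM in the DMSO libraries, a log2 fold change of 3.05 ± 0.14 (SE; edgeR adjusted p = 1.61e-29). FUT3 is a close relative of FUT5 and FUT6, with which reads could be shared. ST6GALNAC1, which makes the sialyl-Tn antigen, had 2.97 and 2.84 CPM in the VXN libraries, against 14.1 and 13 CPM in the DMSO libraries, a log2 fold change of -2.22 ± 0.14 (SE; edgeR adjusted p = 3.26e-22). The sialyltransferase ST3GAL1 and the mucin core enzyme GCNT3 rose, by log2 fold changes of 0.55 and 0.47, and the sialyltransferase ST3GAL4 fell by 0.67 on the log2 scale. GALNT2, GALNT3 and GALNT7, which attach or extend the first sugar, were not called, at 0.00, 0.06 and -0.02, nor was B4GALNT3, at 0.09.

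Protein disulfide isomerases, the family of AGR2, rose in 10 of 15 cases tested and fell in 4, with 1 not called and a median of 0.29, beside 33% of all genes tested that rose and 26.9% that fell. P4HB, the classical member, had 1580 and 1600 CPM in the VXN libraries, against 823 and 777 CPM in the DMSO libraries, a log2 fold change of 0.99 ± 0.029 (SE; edgeR adjusted p = 2.86e-40). PDIA3, which folds glycoproteins, and ERP44, which retains clients in the secretory pathway, rose by log2 fold changes of 0.46 and 0.62, and the membrane-bound TMX1 fell by 0.74. PDIA4, PDIA6, ERP29, TXNDC5 and TMX2 rose by between 0.14 and 0.44 on that scale, TMX3 fell by 0.36, and TXNDC12 was not called, at -0.03. AGR3, the closest relative of AGR2, was chosen for mention after its values were seen, and its log2 fold change was -1.44. Genes of granule docking and exocytosis numbered 16 tested, of which 8 rose and 7 fell, beside 33% and 26.9% of all genes tested. RAB3D, one of the 8, was not called under DESeq2-type size factors, with DESeq2, with no count filter or in the fit to just the groups compared. RAB3D also lost the call without VXN replicate 1, DMSO replicate 1 or DMSO replicate 2. UNC13D, STX3, VAMP2 and STX4, of vesicle priming and fusion, rose by log2 fold changes of 1.10, 0.70, 0.97 and 0.87, and STXBP2 by 0.54. STX2, RAB27B and SYTL4, of membrane fusion and granule docking, fell by 0.92, 0.81 and 0.79 on the log2 scale and were chosen for mention after their values were seen. VAMP8 and EXOC4 fell by 0.42 and 0.26, and SNAP23 was not called, at -0.04. UNC13B, at -0.16, and MARCKS, at -0.09, were called lower and lost the call without DMSO replicate 1. UNC13B lost it also without VXN replicate 2. MARCKS lost it also without VXN replicate 1, without DMSO replicate 2 or with a minimum count of 50.

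In t-hESC under VXN 14.5% of all genes tested rose and 14.6% fell. The goblet products list had 0 genes higher and 1 lower of 13 tested, the transcription factors and Notch genes 6 higher and 0 lower of 18, and the other mucins 2 higher and 0 lower of 7. O-glycosylation genes had 5 higher and 4 lower of 26, disulfide isomerases 1 higher and 4 lower of 15, and exocytosis genes 3 higher and 3 lower of 16. In t-hESC ATOH1 held 8 counts with VXN, 6 with BIX and 5 with DMSO, and SPDEF held 6, 2 and 6, each summed over 2 libraries.

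Markers of other cell types moved as well in HT29. The summed level of 10 epithelial and colorectal markers was 7820 to 7860 CPM in the VXN libraries, against 10500 CPM in both DMSO libraries, with 8 of the 10 over 1 CPM in each group. KRT8 and KRT18 made up most of the sum and fell, as did KRT19 and EPCAM. VIL1 fell the most of the tested markers in this list, with 96 and 94 CPM in the VXN libraries, against 181 and 184 CPM in the DMSO libraries. KRT20, with 700 and 707 CPM in the VXN libraries, against 247 and 252 CPM in the DMSO libraries, and CDH1 rose. CDX2, a defining colorectal marker, was low in both, at 1.22 and 1.67 CPM in the VXN libraries, against 1.73 and 1.62 CPM in the DMSO libraries, and CDX1 was too low to be tested. Paneth cell markers summed to 1420 to 1440 CPM in the VXN libraries, against 2980 to 2990 CPM in the DMSO libraries, nearly all of it LYZ, with 2 of 6 over 1 CPM and DEFA5, DEFA6 and REG3A at 0 counts in each group. The other 2 tested, PRSS2 and PLA2G2A, rose, by log2 fold changes of 1.61 and 1.62, and LYZ was not called with DESeq2. Enterocyte markers summed to 12.3 to 13.7 CPM in the VXN libraries, against 27.1 to 27.3 CPM in the DMSO libraries, with SLC26A3, CA1 and AQP8 at 0 in both. Tuft cell markers summed to 8.96 to 11.3 CPM in the VXN libraries, against 4.24 to 4.65 CPM in the DMSO libraries, and enteroendocrine markers to 0.874 to 1.27 CPM with VXN, against 1.02 to 1.23 CPM with DMSO. Intestinal stem cell markers summed to 227 to 229 CPM in the VXN libraries, against 198 CPM in both DMSO libraries, most of it RNF43. LGR5, the defining marker of that list, fell, with 0.874 and 0.658 CPM in the VXN libraries, against 25.1 and 24.4 CPM in the DMSO libraries. The log2 fold change of LGR5 was -4.99 ± 0.16 (SE; edgeR adjusted p = 3.92e-38). The exact 95% interval of its count ratio, 0.0214 to 0.0441, is wider than this SE implies. Markers of stromal, immune and endothelial cells summed to 5.87 to 8 CPM in the VXN libraries, against 3.46 to 4.53 CPM in the DMSO libraries. Pluripotency markers summed to 7.95 to 10.2 CPM in HT29 with VXN, against 4.1 to 4.32 CPM in HT29 with DMSO, and to between 3690 and 4170 CPM in t-hESC. The part of these shifts in the results above was not tested.

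For the 3 of the 10 genes with the highest mean level in HT29, the genes most alike were found among 14304 genes by the Pearson correlation of log2 CPM over the 10 libraries, each line centred on its own mean. AGR2 was most like COL17A1 (r = 0.9641), LPGAT1 (0.9622) and SIRT5 (0.9461). MUC5AC was most like ZNF554 (r = 0.9769), LINC00667 (0.9745) and PPRC1 (0.9725). MUC13 was most like HSD17B2 (r = 0.9679), FGF9 (0.9429) and PLA2G4A (0.9416). The t-hESC values of AGR2, MUC5AC and MUC13 rest on 0 to 5 counts a library, and these libraries made up 90.5, 28.1 and 51% of the centred sum of squares of the 3 genes. The likeness for AGR2 thus rests mostly on counts near 0, and that for MUC13 does so for about as much as on HT29. The order of the lists of AGR2 and MUC13 therefore carries little weight. None of these 9 genes was a mucin or a trefoil gene. However, the search took in only genes whose average level reached 4 CPM. TFF1, TFF2, TFF3, MUC1, MUC2 and MUC5B each average less than that and could not have been listed. Their absence therefore does not show whether they vary together with AGR2, MUC5AC or MUC13.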

How the data were processed

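Total RNA was made into 10 libraries with the unstranded TruSeq RNA v2 kit, per the labels' protocols. Builds in the submitters' processing notes are hg38 and GRCh38, and tools are STAR, DESeq2 1.34.0, FastQC 0.11.9 and fastp 0.20.1. The program that counted reads is not given in these sources. The table that the authors deposited gives whole-number raw counts for 60651 genes. Its 1181 repeat families were left out here, and 4 further columns that match no sample were not used here. The authors also deposited tables with a log2 fold change and an adjusted p-value per gene, quoted only where named.

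All 10 libraries entered 1 fit in edgeR 4.0.16 (R 4.3.3) with TMM factors and the robust quasi-likelihood F test. filterByExpr, set to at least 10 counts, kept 22495 genes. Residual degrees of freedom were 5 and prior ones 56.7. The fit was tested on simulated data. Depth ran from 13137026 to 24492838 gene counts. Count ratios have exact conditional binomial 95% intervals and a floor of 3 counts. The 95% intervals of log2 fold changes rest instead on SEs worked out from each change and its F statistic.

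The genes and all lists were chosen with earlier results of these data known. Beyond the 10 genes, the text names per list up to 4 genes with the smallest p in HT29 and genes that average 50 CPM or more there, the markers listed for cell types, and ATOH1, SPDEF, FOXA2, FOXA3, KLF4, CDX2, HNF4A and XBP1. Positions and promoters came from RefSeq, GRCh38.p14. Alternatives were other size factors, other count filters, DESeq2 1.42.0, a fit to just the groups being compared, a block for the replicate number, and each library left out in turn.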

Additional observations from a re-analysis of the deposited data

Results flagged for a closer look

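The effect of VXN differed between the lines for TFF3, with a log2 difference, HT29 minus t-hESC, of -3.95 ± 0.56 (SE; edgeR adjusted p = 1.27e-08). TFF3 fell by 3.88 on the log2 scale in HT29 and stood at 0.07 in t-hESC, where it was not called.

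Among 94 tested genes of the related lists, 10 were called in opposite directions in the lines under VXN and also in the test of the difference. That is 10.6% of these genes, beside 5.2% of all 22495 genes tested (1170 genes). Of the mucins this was MUC3A, whose log2 fold change was -0.99 in HT29 and 0.75 in t-hESC, a difference of -1.74. MUC3A had 16.9 ± 0.52 CPM with VXN and 33.7 ± 2.4 CPM with DMSO in HT29, and 54.3 ± 0.49 CPM with VXN and 32.3 ± 0.14 CPM with DMSO in t-hESC (SD, n = 2 each).

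Of the Notch pathway genes, which steer cells between secretory and absorptive fates, HES6 had a difference of -2.12, DLL1 of -2.96 and HES1 of -0.57, all lower in HT29 and higher in t-hESC. DLL1 was near the floor in HT29, at 0.0874 ± 0.12 CPM with VXN and 0.564 ± 0.13 CPM with DMSO (SD, n = 2 each). HES1 was not called in HT29 without VXN replicate 2 or without DMSO replicate 2, and its log2 fold change there ran from -0.23 to -0.15 over the alternatives. C1GALT1C1, the chaperone of the core mucin glycosyltransferase, had a difference of -0.61.

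The other 5 were higher in HT29 and lower in t-hESC, and 4 of them are protein disulfide isomerases. The differences were 1.08 for P4HB, 0.70 for PDIA3, 0.44 for PDIA4 and 0.42 for TXNDC5, and 0.71 for STXBP2, which binds syntaxins in exocytosis. The largest edgeR adjusted p of these 10 differences was 4.58e-05, for DLL1. Groups of 2 libraries allow no test for outlying libraries.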

How the results depend on the processing

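Of 822 values of the 9 genes recomputed over the alternatives, 805 stayed on their side of the threshold and 0 called values changed sign. Another 7 lost their call and 10 gained one, and 17 values that were called in neither fit changed sign. In HT29 MUC5AC, MUC13, TFF3, REG4 and AGR2 were called in each of 17 alternatives. MUC5B was called in 12 of 16, at log2 fold changes of 1.08 to 1.39 with single libraries left out and 1.23 with DESeq2 (adjusted p = 0.242). TFF1 was called in 15 of 16, with 1.16 under DESeq2 (adjusted p = 0.102). In t-hESC MUC1 under BIX was called with DESeq2-type size factors (0.88, edgeR adjusted p = 0.0473), and AGR2 in the test between the lines with a minimum count of 50 (2.17, edgeR adjusted p = 0.0447). DESeq2 called 4086 genes for VXN and 3158 for BIX in t-hESC, where edgeR called 6531 and 5199. A minimum count of 50 leaves MUC1, MUC2, MUC5B and TFF1 untested in HT29. The labels give the groups the same replicate numbers, and deviations of same-numbered libraries correlated at only -0.03 to 0.03 over all genes tested. With 2 libraries a group, this cannot exclude that same-numbered libraries were handled together. With the replicate number as a block 13426 genes were called in HT29, where 13490 were without it. The block changed 1 call of the 9 genes, that of MUC1 under BIX (0.87, edgeR adjusted p = 0.0478). Under upper-quartile factors the median of all genes between HT29 and t-hESC under DMSO was a log2 fold change of -0.23, where with TMM factors it was -0.12. Depth limits MUC5B, TFF2 and, in t-hESC, all genes but MUC1 and TFF3, at a floor of 0.123 to 0.22 CPM.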
